A study of Mus musculus with 2 samples.

Results

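The cholesterol and fatty acid synthesis genes were followed in 2 scRNA-Seq libraries of mouse hind limb muscle. The set held 30 of the 32287 features in the files, chosen by gene symbol for their place in these pathways. Measured values were not the rule of choice, though earlier results of these data were known. The set comprised 17 enzymes of the sterol pathway, 4 regulators and transport proteins of the same pathway (Srebf1, Srebf2, Insig1 and Stard4), and 9 enzymes that make, lengthen or desaturate fatty acids. All 30 genes had UMIs (unique molecular identifiers, each counting 1 captured transcript) in both libraries, from 163 for Lss in the SPP1-nAb library to 5936 for Acly in that library.

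The study asked how neutralisation of SPP1 (osteopontin, a secreted glycoprotein) alters the cells of denervated muscle. Male C57BL/6J mice aged 10 to 16 weeks, described by the study as S100GFP-tg mice in which GFP is driven by the S100B promoter, received bilateral peroneal nerve injury. Injections of 10 μL holding 2 μg of antibody were given every 2 days, either goat anti-mouse IgG or the SPP1 neutralising antibody (SPP1-nAb), and muscle was taken at 7 days post injury (7 dpi). Muscle of several mice was pooled, the number of mice was not given in the sources used here, and each condition had 1 library, so differences between the libraries could not be set against replicates and none was tested. The sample titles call both libraries GFP-positive while the protocol describes collecting GFP+ and GFP- cells, and the labels name tibialis anterior and gastrocnemius where the study's methods name tibialis anterior alone.

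After filtering, 21047 cells with 82850550 UMIs remained in the IgG library and 22282 cells with 109892491 UMIs in the SPP1-nAb library, at medians of 3684 and 4626.5 UMIs per cell. The cells formed 30 clusters, which marker genes placed in 12 classes, and the 30 members were kept out of the genes that formed the clusters. Schwann-like cells (SCs) numbered 515 in IgG and 531 in SPP1-nAb, satellite-like cells 2283 and 1412, mesenchymal-like cells (fibroblasts and their progenitors) 2245 and 997, and mononuclear phagocytes 12467 and 15606. Levels are given as CPM, the UMIs of a gene per 1000000 UMIs of all genes summed over the cells of a class in 1 library. Intervals are exact 95% intervals that cover counting error only, and a gene was called higher or lower when its CPM ratio reached 1.5-fold, between classes in both libraries.

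Cholesterol is built from acetyl-CoA through mevalonate, isoprenoids, squalene and lanosterol. When membrane sterol is low, the transcription factors encoded by Srebf2 and Srebf1 are released from the endoplasmic reticulum, where Insig proteins hold them, and raise the genes of sterol and fatty acid synthesis. SCs are known for the large amounts of both lipids that they make for myelin. Macrophages in injured nerve and muscle are known for taking lipid up from debris. The paper describes the SCs of these libraries as a discrete cluster of terminal SCs, a nonmyelinating type. In its separate data after sciatic nerve crush, the SC subtype tied to myelination and cholesterol metabolism was not detected. How many SCs here were myelin-forming was not tested, so their levels are not those of myelinating SCs as such.

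The SREBP proteins bind sterol response elements, and a neighbouring CCAAT box binds the factor NF-Y. Promoters of the 6 sterol enzymes with the largest SC over phagocyte ratio are shown because SREBP sites are described for this pathway. The windows run from 250 bases before to 50 bases after the start in RefSeq on the GRCm38.p6 build, on the strand of the gene, and capitals mark CCAAT on either strand (ATTGG when read from the gene's strand) or the sterol response element TCACNCCAC, which did not overlap. The positions are chr10:76531355-76531654 (+) for Lss, chrX:72918271-72918570 (+) for Nsdhl, chr13:119690101-119690400 (+) for Hmgcs1 and chr1:169969156-169969455 (-) for Hsd17b7. Sqle and Fdft1 had no entry in the promoter table.
Lss: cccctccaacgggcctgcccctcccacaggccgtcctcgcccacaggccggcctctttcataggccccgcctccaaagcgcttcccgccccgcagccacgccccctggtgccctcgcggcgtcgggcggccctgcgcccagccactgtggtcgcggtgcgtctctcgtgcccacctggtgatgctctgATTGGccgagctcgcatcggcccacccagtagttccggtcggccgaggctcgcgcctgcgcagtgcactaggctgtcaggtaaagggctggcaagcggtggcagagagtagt
Nsdhl: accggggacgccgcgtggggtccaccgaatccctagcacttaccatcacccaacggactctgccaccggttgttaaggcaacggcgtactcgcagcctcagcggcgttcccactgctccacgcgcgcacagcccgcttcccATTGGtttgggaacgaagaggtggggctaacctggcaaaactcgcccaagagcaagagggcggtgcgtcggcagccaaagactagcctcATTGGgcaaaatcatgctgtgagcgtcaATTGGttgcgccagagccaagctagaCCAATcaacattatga
Hmgcs1: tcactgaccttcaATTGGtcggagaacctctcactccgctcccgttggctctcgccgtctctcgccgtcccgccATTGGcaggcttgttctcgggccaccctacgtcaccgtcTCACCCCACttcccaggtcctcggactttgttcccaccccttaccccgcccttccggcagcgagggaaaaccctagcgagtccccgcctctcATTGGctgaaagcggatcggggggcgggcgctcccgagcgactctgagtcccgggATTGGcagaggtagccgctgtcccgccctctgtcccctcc
Hsd17b7: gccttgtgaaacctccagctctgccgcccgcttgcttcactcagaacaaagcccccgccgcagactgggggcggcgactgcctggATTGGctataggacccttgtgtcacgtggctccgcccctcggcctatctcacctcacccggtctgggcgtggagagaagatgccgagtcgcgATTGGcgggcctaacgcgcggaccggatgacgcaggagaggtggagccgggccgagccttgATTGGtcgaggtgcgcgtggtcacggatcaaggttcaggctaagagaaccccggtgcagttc
CCAAT was present in 20 of the 28 windows found for 23 members, or 71.4%, against 37.4% of all 32851 windows of the same length. In the sterol list it was present in 13 of 17 windows, and in the fatty acid list in 3 of 6. TCACNCCAC was found in 1 member window, that of Hmgcs1 at 137 bases before the start, against 1.24% of all windows. A match describes the letters of the window and is not evidence of binding.

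Summed over the 17 sterol enzymes, the level ranged between classes from 175 to 1374 CPM in IgG and from 182 to 656 CPM in SPP1-nAb. Perineurial-like cells had the highest level, 1374 CPM in IgG and 656 in SPP1-nAb. cDC2-like cells (conventional dendritic cells) followed with 623 and 566 CPM and cDC1-like cells with 472 and 490 CPM. A per-cell marker gate held 248 of 711 and 204 of 639 cDC2-like cells, and 155 of 393 and 135 of 400 cDC1-like cells. Ccr7, listed as a marker of mature regulatory dendritic cells, was among the leading genes of the cDC1-like cluster, so both names are uncertain. Mesenchymal-like cells had 382 and 299 CPM, SCs 348 and 306 CPM, and satellite-like cells 335 and 250 CPM. Mononuclear phagocytes had 265 and 273 CPM, and neutrophil-like cells 175 and 230 CPM. SCs stood below 4 other classes in IgG.

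The 9 fatty acid genes gave another order. The summed level was 453 CPM in IgG and 424 in SPP1-nAb in SCs, and 428 and 390 CPM in mesenchymal-like cells. It was 209 and 201 CPM in satellite-like cells, 141 and 159 CPM in mononuclear phagocytes, and 66.6 and 75.0 CPM in neutrophil-like cells. Scd2 alone held 307 of the 638 list UMIs of SCs in IgG and 316 of 727 in SPP1-nAb. In mesenchymal-like cells Scd2 held 1385 of 5245 and 679 of 3024. The place of SCs in this order thus rests in large part on that gene. The summed level of perineurial-like cells was 567 and 1179 CPM. Scd1 and Scd2 held 80 and 100 of their 480 list UMIs in IgG, and 75 and 50 of 169 in SPP1-nAb. In SPP1-nAb, 1 perineurial-like cell held 19 of the Scd2 UMIs. That class rested on 200 and 32 cells and on 3 of 6 markers (Cldn1, Foxd1 and Tenm2), and a per-cell marker gate placed 5 and 0 of its cells in it, so its name is the least secure of those used here. Free RNA, estimated from neutrophil genes, was at most 17.4% of its UMIs in IgG and 0% in SPP1-nAb, against 2.34% and 6.63% in phagocytes, and its values were not recomputed with free RNA subtracted.

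**Figure D1:**
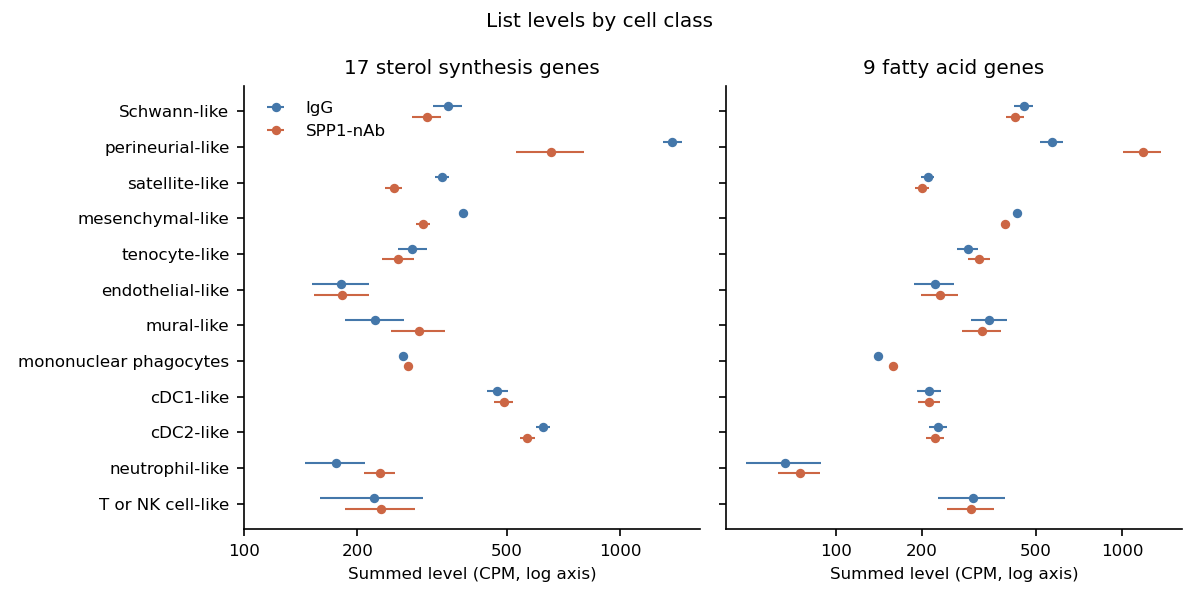
Summed level in CPM (log axis) of the 17 sterol enzymes (left) and the 9 fatty acid genes (right) in each cell class, with points for the IgG and SPP1-nAb libraries and bars for exact 95% counting intervals. Perineurial-like cells stood highest in both panels, and SCs stood near mesenchymal-like cells in both.

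SCs were compared with phagocytes, the most numerous class. Of 30 members, 14 were higher and 4 lower in SCs by at least 1.5-fold in both libraries, against 35.7% higher and 23% lower of 12567 genes tested. The share of members that was higher was near that of all genes, and the difference lay in the fatty acid list, of which 7 of 9 were higher. The median log2 ratio of that list was 1.78 in IgG and 1.57 in SPP1-nAb, where all genes tested had 0.32 in both. The sterol list had a median of 0.49 and 0.48, with 6 of 17 higher and 2 lower. Summed over the genes of a list, the log2 ratio was smaller for the sterol list, at 0.28 (0.19 to 0.37). It was 1.55 (1.47 to 1.63) for the fatty acid list, both as means of the log2 ratios of the 2 libraries.

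Fads2, Scd1 and Scd2, all desaturases, held the largest ratios. Scd2, a stearoyl-CoA desaturase that makes monounsaturated fatty acids, was at 218 CPM in SCs and 13.3 CPM in phagocytes in IgG, and at 184 and 24.3 CPM in SPP1-nAb. Its log2 ratio was 4.03 (3.83 to 4.23) and 2.92 (2.75 to 3.09). Scd1, a close paralog on the same chromosome, was at 23.4 against 1.20 CPM in IgG and at 33.3 against 1.03 CPM in SPP1-nAb. How reads that fit both of these similar genes were counted was not tested, so the split between them is uncertain. Fads2, which opens the synthesis of long polyunsaturated fatty acids, was at 34.1 against 0.860 CPM in IgG and at 38.5 against 0.580 CPM in SPP1-nAb. Fads1, the desaturase that acts later in that route, was at 29.1 against 12.3 CPM and at 33.3 against 11.2 CPM. In each of these 4 genes the SC level lay above the phagocyte level in both libraries. All 4 lie on chromosome 19 (GRCm39), Fads2 at 10038130 to 10079203, Fads1 at 10160167 to 10174241, Scd2 at 44281613 to 44295303 and Scd1 at 44382894 to 44399154.

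The enzymes that build the chain divided. Acaca, the acetyl-CoA carboxylase that commits carbon to fatty acids, was at 65.3 CPM in SCs against 19.0 CPM in phagocytes in IgG, and at 51.4 against 18.5 CPM in SPP1-nAb. Fasn, fatty acid synthase, was at 15.6 against 2.87 CPM and at 15.2 against 4.89 CPM. Elovl6, an elongase of saturated chains, had log2 ratios of 1.72 and 1.57. Acly, which supplies cytosolic acetyl-CoA from citrate, was lower in SCs, at 23.4 against 48.2 CPM in IgG and at 32.1 against 57.9 CPM in SPP1-nAb. Elovl5, an elongase of polyunsaturated chains, was also lower, with log2 ratios of -0.61 and -0.97.

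Of the sterol enzymes, Sqle, which oxidises squalene, was at 17.8 CPM in SCs and 6.96 CPM in phagocytes in IgG, and at 22.8 and 6.62 CPM in SPP1-nAb. Fdft1, which makes squalene, had log2 ratios of 1.14 and 1.47. Nsdhl, a demethylating enzyme after lanosterol, was at 20.6 against 7.42 CPM and at 13.4 against 7.52 CPM. Hmgcs1, which makes the precursor of mevalonate, was at 56.8 against 28.3 CPM and at 46.7 against 27.9 CPM. Lss, which closes the rings of lanosterol, and Hsd17b7 were called higher too, but the intervals of Lss in SPP1-nAb and of Hsd17b7 in both libraries included no difference. Ebp, a sterol isomerase, was lower in SCs, at 22.7 against 44.2 CPM and at 30.3 against 48.3 CPM, as was Mvd. The members nearest to no difference included Stard4 and Pmvk. Sterol enzymes thus lay on both sides of no difference.

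Among the regulators, Srebf1, the SREBP gene tied most to fatty acid synthesis, was at 39.8 CPM in SCs and 9.61 CPM in phagocytes in IgG, and at 30.9 and 9.93 CPM in SPP1-nAb. Srebf2, tied most to sterol synthesis, was at 32.0 against 40.8 CPM and at 32.7 against 37.6 CPM. Of 12 genes of sterol efflux, storage and the LXR response, none was higher in SCs and 8 were lower, among them the exporters Abca1 and Abcg1, with a median log2 ratio of -2.59 in IgG and -2.39 in SPP1-nAb. Of 12 further sterol genes 4 were higher and 2 lower, and of 13 further fatty acid genes tested 7 were higher and 0 lower. Of all 12567 genes tested, 35.7% were higher in SCs and 23% lower. The higher share of the further sterol genes was thus near that of all genes.

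**Figure D2:**
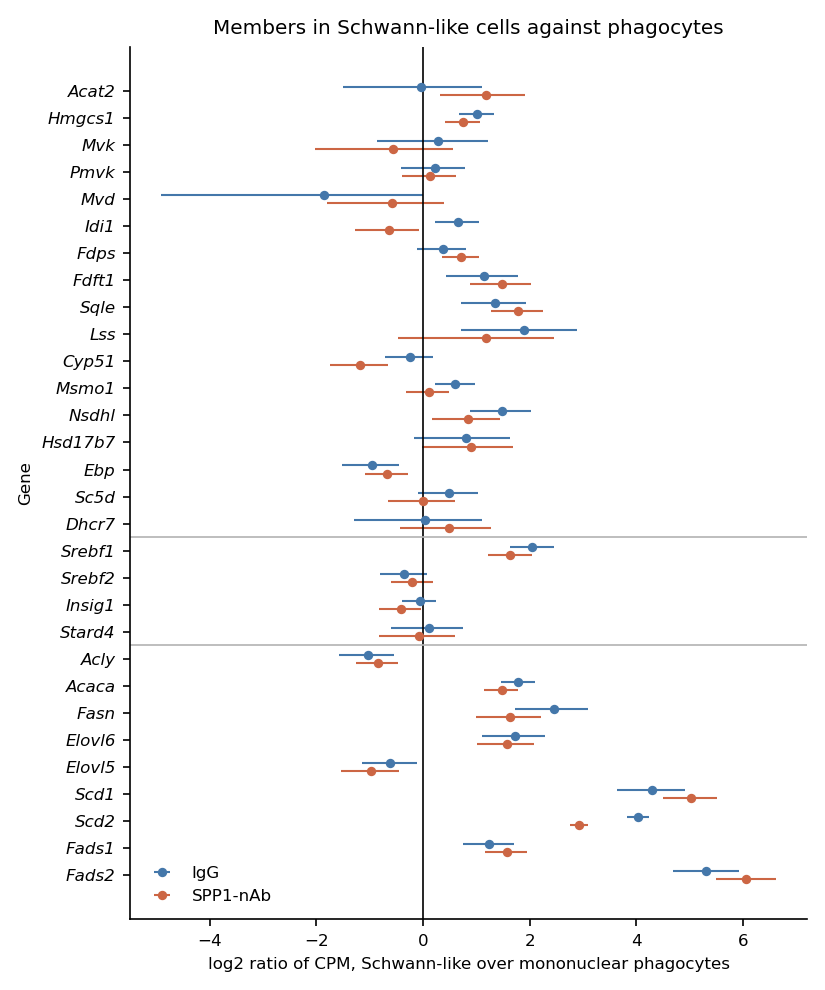
The log2 ratio of CPM in SCs over mononuclear phagocytes for each of the 30 members in the IgG and SPP1-nAb libraries, with exact 95% intervals for counting error and grey lines between the sterol, regulator and fatty acid lists. Fads2, Scd1 and Scd2 lay farthest to the right, and Acly, Elovl5 and Ebp lay left of 0 in both libraries.

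Against satellite-like cells, the muscle stem cells and their progeny, 7 of 25 members tested were higher in SCs and 3 lower, with 26.4% and 15.3% of all genes. The higher members were Pmvk, Msmo1, Nsdhl, Srebf1, Scd2, Fads1 and Fads2, and the lower were Cyp51, Hsd17b7 and Srebf2. Against mesenchymal-like cells, 6 of 27 were higher and 4 lower, with 27% and 20.2% of all genes. Both shares were close to those of all genes. The summed sterol level of SCs was within the counting interval of equality with mesenchymal-like cells in SPP1-nAb (log2 ratio 0.03, -0.11 to 0.17) and slightly below in IgG (-0.14). Scd2, Fads2 and Srebf1 were higher in SCs in all 3 of these comparisons, which share the SC values.

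Satellite-like cells had lower levels than mesenchymal-like cells in 8 of 27 members tested and higher levels in 0, against 23.9% and 17.6% of all genes. Of the 8, 6 were fatty acid genes, with a list median of -1.18 in IgG and -1.26 in SPP1-nAb. Acly was at 20.1 CPM in satellite-like and 79.4 CPM in mesenchymal-like cells in IgG, and at 17.9 and 71.0 CPM in SPP1-nAb. The sterol list differed less, with a log2 ratio of -0.22 (-0.29 to -0.16) as the mean of the log2 ratios of the 2 libraries.

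Perineurial-like cells were above mesenchymal-like cells in 12 of 25 members tested and below in 0, where 5.62% of all genes were higher and 11.8% lower. Idi1, an isomerase of isoprenoid units, was at 271 CPM against 42.3 CPM in IgG and at 55.8 against 25.2 CPM in SPP1-nAb. Fdps, which joins those units, was at 96.9 against 25 CPM and at 105 against 20.1 CPM. Hmgcs1 was at 264 against 69.2 CPM and at 119 against 56.4 CPM. The SPP1-nAb values came from 32 cells, and the 8 UMIs of Idi1 there lay in 6 cells.

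cDC2-like cells were above mononuclear phagocytes in 16 of 30 members and below in 1, Fads1, where 9.18% of all genes were higher and 23.7% lower. Cyp51, the lanosterol demethylase, was at 132 CPM against 37.2 CPM in IgG and at 121 against 39.7 CPM in SPP1-nAb. Fdps was at 87.8 against 23.1 CPM and at 88.0 against 26.4 CPM. The efflux, storage and LXR list ran the other way, with 0 of 12 higher and 8 lower.

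**Figure D3:**
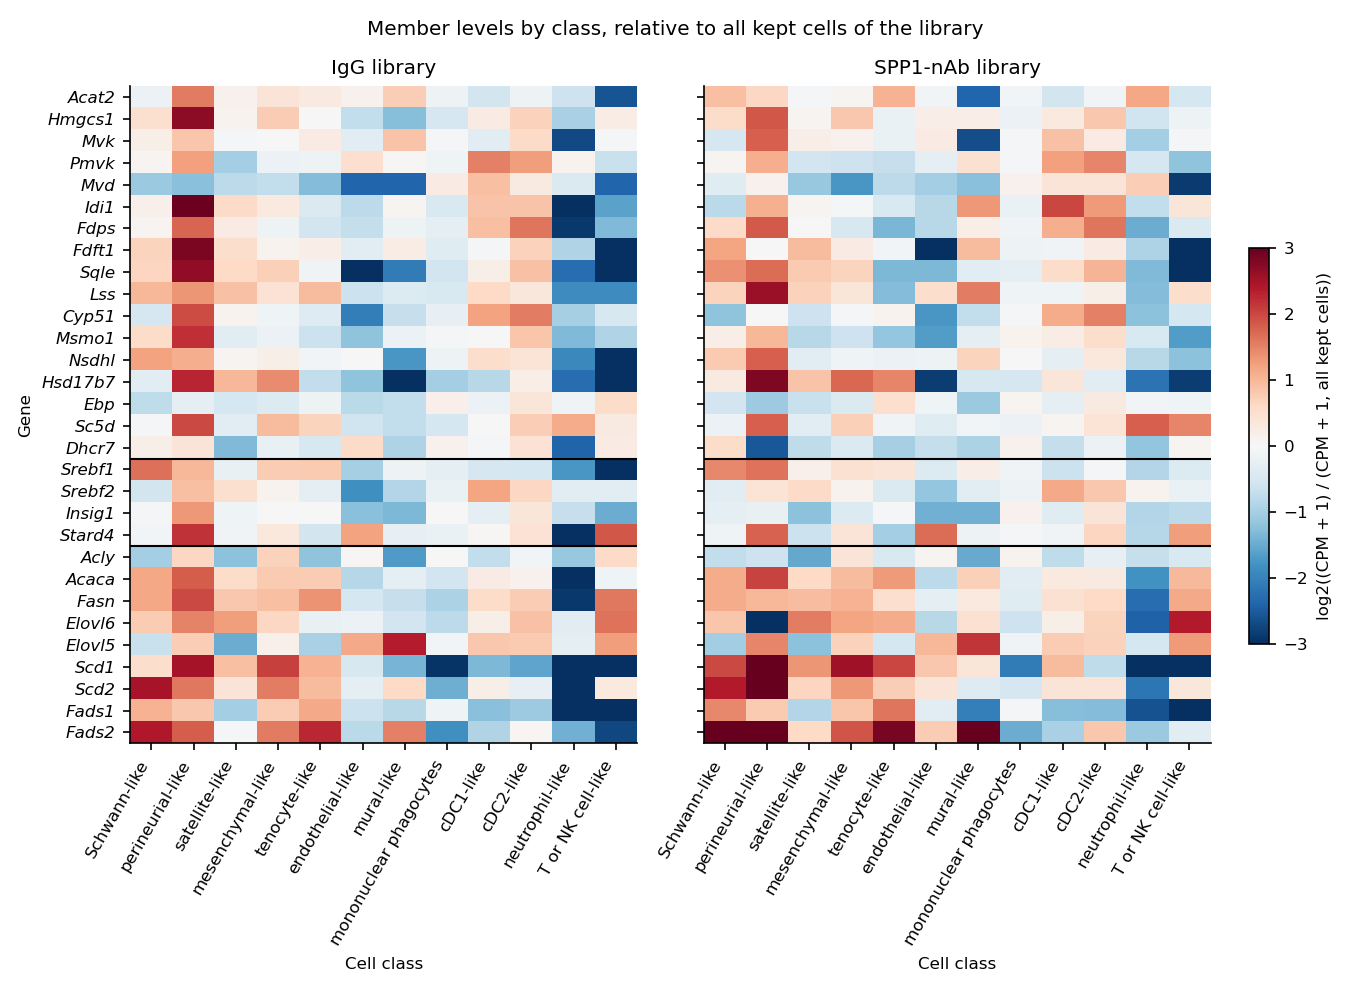
Level of each of the 30 members (rows, with lines between the 3 lists) in each class (columns) as log2 of CPM + 1 over CPM + 1 of all kept cells, for the IgG and SPP1-nAb libraries, with colours limited at -3 and 3. Perineurial-like cells were red across most sterol rows, SCs were red mainly in the fatty acid rows and Srebf1, and cells of small classes varied with few UMIs.

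Some members stood out in other classes. Elovl5 was at 205 CPM in IgG and 168 in SPP1-nAb in mural-like cells (pericytes and vascular smooth muscle), against 36.9 and 34.3 CPM in phagocytes and 24.1 and 17.5 CPM in SCs. In the mural-like cluster led by Myh11 and Pln it was at 264 and 221 CPM. Sc5d, which was low in SCs at 20.6 and 13.4 CPM, was at 47.8 and 55.8 CPM in neutrophil-like cells, the class with the lowest summed fatty acid level. Pmvk was at 43.4 and 54.7 CPM in cDC2-like cells, against 18.5 and 20.4 CPM in SCs and 8.07 and 12.6 CPM in satellite-like cells.

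Acat2, Mvk, Mvd, Lss and Dhcr7 were the sterol enzymes with the fewest UMIs, each under 700 in either library. Acat2, which joins acetyl-CoA units at the start of the pathway, was at 4.26 and 8.75 CPM in SCs and at 4.36 and 3.88 CPM in phagocytes. Mvk, mevalonate kinase, was at 6.39 and 3.5 CPM in SCs and at 5.29 and 5.21 CPM in phagocytes. Dhcr7, which reduces the last precursor to cholesterol, was at 4.97 and 7.59 CPM in SCs and at 4.86 and 5.43 CPM in phagocytes. For these 3 genes the order of the classes turned between libraries or lay within the counting intervals. Mvd, which makes isopentenyl diphosphate, was at 1.42 and 4.67 CPM in SCs and at 5.16 and 7.03 CPM in phagocytes, from 2 and 8 UMIs in SCs.

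The 2 SC clusters differed in the desaturases. The cluster with Reln among its leading genes held 282 and 308 cells, and the cluster led by Klk9 held 233 and 223 cells. Scd2 was at 278 CPM in the Reln cluster and 148 CPM in the Klk9 cluster in IgG, and at 222 and 137 CPM in SPP1-nAb. Fads2 ran the other way, at 9.22 against 63.2 CPM in IgG and at 16.7 against 66.0 CPM in SPP1-nAb. Fads1 did too, at 17.1 against 43.2 CPM and at 15.7 against 55.5 CPM. Of 6 members with enough UMIs for a call, 2 (Hmgcs1 and Scd2) were higher in the Reln cluster and 0 lower, where 6.5% of all genes were higher and 7.37% lower. Fads1 and Fads2 had under 50 UMIs in at least 1 library, below the minimum for a call. The sterol list was higher in the Reln cluster by 0.40 on the log2 scale in IgG and by 0.39 in SPP1-nAb. In IgG, 1 cell of the Reln cluster held 28 sterol UMIs when cells were thinned to 2000 UMIs. The highest cell of the Klk9 cluster held 6 in IgG, and any SC of SPP1-nAb held at most 5. The IgG difference between the SC clusters rests in part on that 1 cell and was not recomputed without it.

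Within satellite-like cells, the cluster led by Nppc and Gal (1033 and 393 cells) was above the others in 7 of 21 members and below in 0, where 3.75% of all genes were higher and 9.73% lower. The sterol list there was at 533 CPM in IgG and 363 in SPP1-nAb, against 251 and 226 CPM in the largest satellite-like cluster. Idi1 was at 104 and 43.9 CPM in the Nppc cluster. The markers Calcr and Chodl were raised in the Nppc cluster and in the largest satellite-like cluster alike. The largest satellite-like cluster was above the others in 0 members and below in 4 (Idi1, Fdps, Fdft1 and Msmo1), where 6.44% of all genes were higher and 4.29% lower. A cluster led by Actc1 and Myog, of differentiating muscle cells, was above in 0 and below in 6, among them Hmgcs1, Sqle and Cyp51, where 16.5% and 20.5% of all genes were. Within mesenchymal-like cells, the cluster led by Kcnb2 and Dlk1 was above the others in 11 of 25 members, and below in 0, where 7.22% of all genes were higher and 7.95% lower, with sterol levels of 819 and 613 CPM. That cluster held 235 cells in IgG and 15 in SPP1-nAb, so cluster and library cannot be told apart in it. The cluster led by Gdf10 and Cxcl14 was past the fold in 0 members, where 4.74% of all genes were higher and 4.45% lower. Cells of the Krtdap and Pi16 cluster were above in 0 and below in 3 (Pmvk, Cyp51 and Fads1), where 5.35% and 8.84% of all genes were.

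Among phagocytes, the monocyte cluster, led by Hp and Vcan, was above the other phagocytes in 8 of 29 members tested and below in 2, where 4.99% of all genes were higher and 15.9% lower. Its higher members were mostly sterol enzymes (Idi1, Fdps, Sqle, Cyp51, Msmo1 and Sc5d), with Cyp51 at 84.8 CPM in IgG and 94.1 in SPP1-nAb. Its summed level was 413 and 408 CPM for the sterol list and 179 and 196 CPM for the fatty acid list, both above the levels of all phagocytes. The cluster led by Rnase2a, Ear2 and Retnla was above the others in 9 and below in 0, where 4.21% and 12.4% of all genes were. Its higher members were mostly fatty acid genes (Acaca, Fasn, Elovl6, Elovl5, Scd1 and Scd2). Its summed level was 310 and 342 CPM for the sterol list and 237 and 242 CPM for the fatty acid list, also both above the levels of all phagocytes.

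The resident cluster, led by Lyve1 and Cd163, was above the others in 1 member and below in 5, where 18.4% and 11% of all genes were. Its 1 higher member was Fads1, at 22.7 CPM in IgG and 25.1 in SPP1-nAb. Fads1 was also at 20.1 and 21.8 CPM in the Gpr34 and Bank1 cluster, against 4.35 and 2.62 CPM in the monocyte cluster. The cluster led by Fabp4, Atp6v0d2 and Gpnmb, genes of lipid-handling macrophages, was above in 0 members and below in 5, where 3.43% and 16.4% of all genes were. In that cluster 5 of the 12 efflux, storage and LXR genes were higher, among them Abcg1 and Plin2, and 2 lower. The inflammatory cluster, led by Cxcl3 and Il1a, was past the fold in 0 members in either direction, where 2.06% and 18.3% of all genes were.

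Phagocytes of the Il10 and Ccl4 cluster were above in 0 members and below in 6 (Mvd, Fdps, Hsd17b7, Acly, Scd1 and Scd2), where 3.87% of all genes were higher and 10.1% lower. The Gpr34 and Bank1 cluster was above in 2, Acat2 and Fads1, and below in 6, where 17.6% and 8.21% of all genes were. Of the 2 interferon clusters, the cluster with Ifit1 and Ifit2 in the lead was above in 1, Fads1, and below in 6, where 9.05% and 7.73% of all genes were. The other, led by Slfn4 and Isg20, was above in 0 and below in 2, Scd1 and Fads1, where 3.76% and 15.4% of all genes were. The cycling cluster was above in 6 (Pmvk, Fdps, Lss, Srebf2, Fasn and Scd1) and below in 1, Insig1, where 13.2% and 15.9% of all genes were. A cluster with muscle fibre genes in the lead was above in 0 and below in 5, where 10.9% and 8.8% of all genes were.

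**Figure D4:**
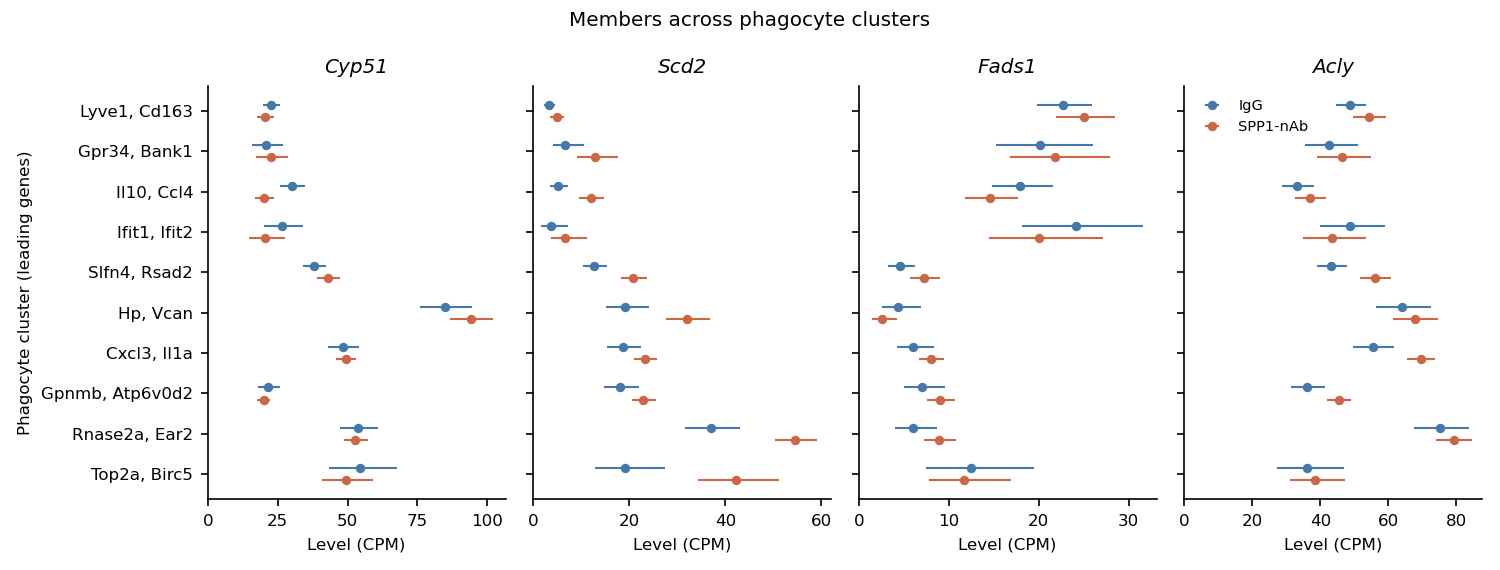
Level in CPM of Cyp51, Scd2, Fads1 and Acly in 10 phagocyte clusters, named by leading genes, for the IgG and SPP1-nAb libraries with exact 95% Poisson intervals. Cyp51 was highest in the Hp and Vcan cluster, Scd2 in the Rnase2a and Ear2 cluster, and Fads1 in the Lyve1, Gpr34, Il10 and Ifit1 clusters.

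Between the libraries, sterol enzyme levels were lower in SPP1-nAb in satellite-like and mesenchymal-like cells and near equal in phagocytes. The log2 ratio of SPP1-nAb over IgG for the sterol list was -0.42 (-0.52 to -0.33) in satellite-like cells and -0.36 (-0.43 to -0.28) in mesenchymal-like cells. It was -0.19 (-0.37 to -0.01) in SCs and 0.05 (0.02 to 0.08) in phagocytes. Most single phagocyte clusters had a lower sterol level in SPP1-nAb and the rest a higher one, mostly with overlapping intervals. The level was 219 CPM in IgG and 193 in SPP1-nAb in the Il10 and Ccl4 cluster, and 310 and 342 CPM in the Rnase2a and Ear2 cluster. The Rnase2a and Ear2 cluster was 891 of 12467 phagocytes in IgG and 1839 of 15606 in SPP1-nAb. The part of cluster shares in the phagocyte ratio was not tested. The SC interval included 0 with no doublets removed (-0.30 to 0.02), with cells of more than 500 genes (-0.34 to 0.02), with no integration (-0.34 to 0.02) and under the per-cell marker gate (-0.32 to 0.06). The IgG sterol sum of SCs was 490 UMIs, and 1 cell held 28 sterol UMIs when thinned to 2000 UMIs. The SC ratio was not recomputed without that cell. These intervals treat the UMIs of 1 cell as independent and hold no variation between animals.

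Insig1, whose product holds the SREBP proteins in the endoplasmic reticulum and is itself an SREBP target, was the member with the most uniform difference. It was at 58.9 CPM in IgG and 33.3 in SPP1-nAb in SCs, at 56.2 and 16.9 CPM in satellite-like cells, and at 61.6 and 30.5 CPM in mesenchymal-like cells. In phagocytes it was at 61.6 and 44.6 CPM. It was lower in SPP1-nAb in 11 of 11 classes with at least 20 UMIs, by a median log2 ratio of -0.79 (range -2.14 to -0.47). The remaining class, T or NK cell-like cells, had 13 UMIs in all and a ratio of 0.15 (-1.69 to 2.30). Insig1 was also lower in 25 of 25 clusters, several of which hold the same cells as a whole class. The sign count was chosen after values were seen, and all signs come from the same 2 libraries. Of 4371 genes counted in at least 11 classes, 0.526% were lower in all of them, and of 5046 genes counted in at least 25 clusters, 0.0793% were.

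In satellite-like cells, 1 of 22 members with at least 100 UMIs was higher in SPP1-nAb and 6 lower, against 7.14% and 4.99% of all genes. Pmvk, phosphomevalonate kinase, was higher, at 8.07 and 12.6 CPM, a call that was lost with no doublets removed, with 20% removed, under the per-cell gate and when cells were thinned to 2000 UMIs. Idi1 was lower at 51.6 and 27.8 CPM, Cyp51 at 48.1 and 26.8 CPM, and Hsd17b7 at 23.0 and 11.9 CPM. Msmo1, Stard4 (a sterol carrier) and Insig1 made up the rest. By cluster, the sterol log2 ratio was -0.55 in the Nppc cluster, -0.15 in the largest cluster and 0.14 in the Myog cluster. The Nppc cluster was 1033 of 2283 cells in IgG but 393 of 1412 in SPP1-nAb.

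In mesenchymal-like cells, 0 of 27 members were higher and 5 lower, against 5.42% and 6.43% of all genes. These were Acat2, Idi1, Msmo1, Sc5d and Insig1. Sc5d, a late sterol desaturase, was at 42.9 and 25.7 CPM, and Idi1 at 42.3 and 25.2 CPM. Without the Kcnb2 and Dlk1 cluster, 1 member was lower and the sterol log2 ratio was -0.19. In SCs, 0 of 9 members were higher and 1, Insig1, lower, against 1.85% and 2.1% of all genes.

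In mononuclear phagocytes, 2 of 29 members were higher in SPP1-nAb and 0 lower, against 2.77% and 9.16% of all genes. Scd2 was at 13.3 and 24.3 CPM, a log2 ratio of 0.87 (0.74 to 0.99), and its level was higher in SPP1-nAb in each phagocyte cluster drawn in the plot of phagocyte clusters, with intervals that included no difference in the Lyve1 and Ifit1 clusters. Fasn was at 2.87 and 4.89 CPM, a log2 ratio of 0.77 (0.50 to 1.05). The Rnase2a and Ear2 cluster, where Fasn was above the other phagocytes, was 891 of 12467 phagocytes in IgG and 1839 of 15606 in SPP1-nAb. The part of that shift in the Fasn ratio was not tested. In perineurial-like cells 2 of 8 members were higher and 5 lower, against 14.9% and 17.6% of all genes, with Scd1 at 94.5 and 523 CPM, the latter from 75 UMIs in 20 cells.

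Genes that respond to tissue dissociation (Fos, Jun, Egr1, Atf3, Dusp1, Hspa1a and Hspa1b) were lower in SPP1-nAb in each of the 12 classes, by log2 ratios of -0.06 in SCs, -0.85 in satellite-like cells, -0.33 in mesenchymal-like cells and -0.88 in phagocytes. Cell cycle genes differed by -1.33 in SCs, 1.18 in satellite-like cells and 1.14 in mesenchymal-like cells. The part of these lists in the differences between the libraries was not tested.

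**Figure D5:**
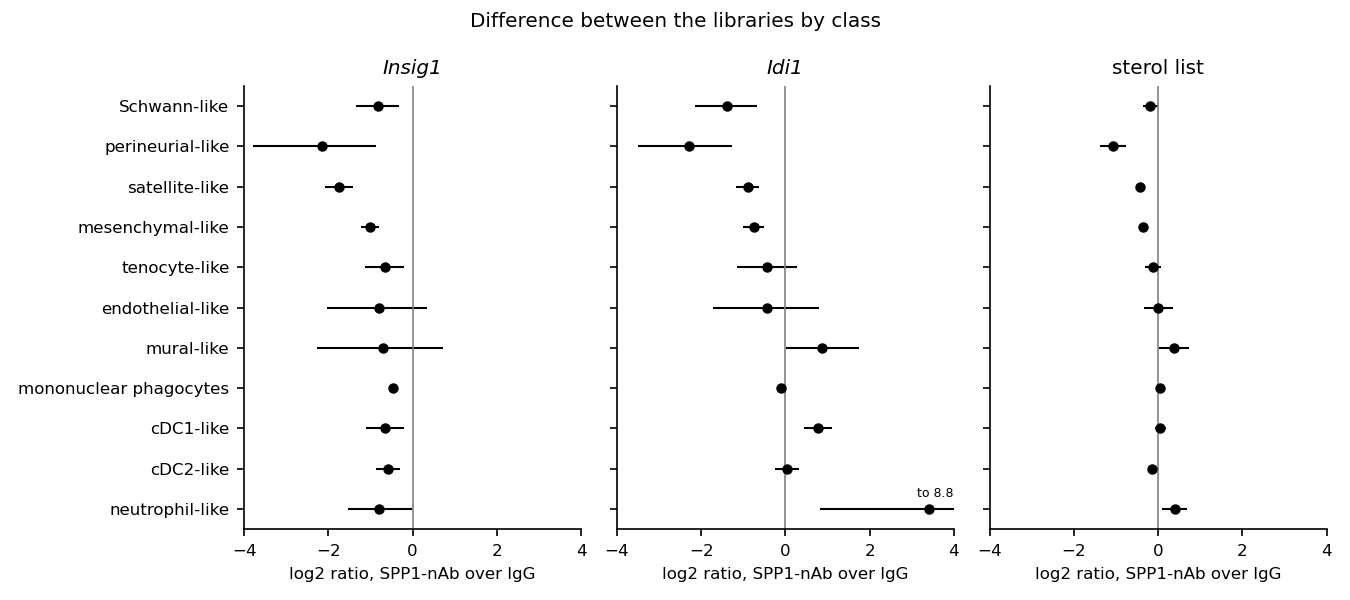
The log2 ratio of SPP1-nAb over IgG for Insig1, Idi1 and the summed sterol list in 11 classes, with exact 95% intervals for counting error. Insig1 lay left of 0 in each class drawn, while Idi1 lay left of 0 in SCs, perineurial-like, satellite-like and mesenchymal-like cells and right of 0 in cDC1-like, mural-like and neutrophil-like cells, where its upper bound in neutrophil-like cells runs off the axis and is printed.

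Of the 30 members, 10 overlap a protein-coding gene on the opposite strand (GENCODE M39, GRCm39), among them Hmgcs1 with Nim1k, Fdft1 with Ctsb, Sqle with Washc5, Cyp51 with Akap9, Nsdhl with Cetn2, Srebf1 with Rai1 and Acly with Odad4. Members overlapping a protein-coding gene on the same strand numbered 0. The study reports default parameters for the counting and names no strand setting. Whether reads of the partner were included for the 10 genes was not tested.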

How the data were processed

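Gene by cell UMI counts were deposited by the authors for 2 libraries (23779 barcodes and 97607674 UMIs for IgG, 25069 and 127719916 for SPP1-nAb). The submitters' processing notes name Cell Ranger 8.0.0 and GRCm39, and the header of the deposited count files names Cell Ranger 9.0.1. The libraries shared 163 barcode sequences, 0.685% of the IgG barcodes.

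Barcodes with more than 200 genes and under 10% mitochondrial UMIs were kept, and the 10% with the highest doublet scores were removed with scrublet in scanpy 1.11.5. The libraries were integrated on 30 principal components of 2000 variable genes that excluded the members, and clustered with leidenalg 0.10.2 at resolution 1. Clusters were named from marker lists, with thresholds set after the clusters were seen. Raw UMIs were summed per gene, class and library. Free RNA was not removed from the main values. Class comparisons took genes with at least 50 UMIs in each library, library comparisons genes with at least 100, and calls a CPM ratio of 1.5. Ratios have exact binomial intervals and levels exact Poisson intervals, and the scripts were tested on simulated data.

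Members and lists were chosen with earlier results of these data known. Values in the text followed a rule of the largest log2 ratios of the same sign in both libraries (up to 10 per class comparison, up to 8 between libraries) plus members near no difference. Members named for a level in 1 other class or cluster were chosen after their values were seen. The perineurial-like and cDC2-like comparisons, the splits of satellite-like and mesenchymal-like cells, the single-cell check and the count of classes of 1 sign were chosen after values were seen. In all, 10 alternatives were planned and 1 was added after the data were seen. Promoters came from RefSeq (GRCm38.p6) and gene positions from GENCODE M39 (GRCm39).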

Additional observations from a re-analysis of the deposited data

Results flagged for a closer look

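Idi1, an isomerase of isoprenoid synthesis, moved in opposite directions between the libraries in different classes. Its log2 ratio of SPP1-nAb over IgG was 0.77 in cDC1-like cells, and -0.89 in satellite-like, -0.75 in mesenchymal-like and -2.28 in perineurial-like cells. The perineurial-like value rested on 8 Idi1 UMIs in 6 cells in SPP1-nAb. The Nppc cluster of satellite-like cells held 1033 cells in IgG and 393 in SPP1-nAb. The Kcnb2 and Dlk1 cluster of mesenchymal-like cells held 235 and 15. The part of these cluster shares in the Idi1 ratios was not tested. With 1 library per condition, the difference between classes was not tested.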

How the results depend on the processing

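No paired analysis was possible because each condition had 1 library. Settings were varied for 7 list ratios (sterol list for SC over phagocytes, satellite-like over mesenchymal-like, and between libraries in SCs, satellite-like cells, mesenchymal-like cells and phagocytes, and fatty acid list for SC over phagocytes), and not for the other list values. The signs of these 7 held under the 10 other settings chosen at the outset and the 1 chosen after seeing the data, which left out the mesenchymal-like cluster of 15 cells in SPP1-nAb. The list ratios between classes are means of the log2 ratios of the 2 libraries. The satellite-like over mesenchymal-like sterol log2 ratio (-0.22) was -0.50 at clustering resolution 2, -0.35 with members among the variable genes, -0.40 under a per-cell marker gate and -0.12 without the mesenchymal-like cluster of 15 cells in SPP1-nAb. The SC over phagocyte log2 ratio of the summed fatty acid list (1.55) was 1.46 with no doublets removed. The sterol log2 ratio between libraries was, in satellite-like cells, -0.32 with no doublets removed and -0.64 with cells thinned to 2000 UMIs. In mesenchymal-like cells it was -0.63 at resolution 2, -0.28 with no doublets removed, -0.56 with members among the variable genes, -0.55 under the gate and -0.19 without that cluster. In phagocytes it was 0.00364 with no doublets removed, an interval of -0.03 to 0.03. Of 196 single-gene values, 27 fell outside their main interval at resolution 2, 25 when thinned and 10 under the gate, without a reversal. In each other setting 7 or fewer did. The 1 reversed value was Acat2 in mesenchymal-like cells, which turned to 0.13 when thinned (-0.95 to 1.15). The causes were not tested.

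Counts of members past the fold moved by more than 1.5 times in these cases. SC over mesenchymal-like lower members went from 4 to 8 at resolution 2 and under the gate and to 7 with members among the variable genes. SC over phagocyte lower members went from 4 to 2 with no doublets removed and 0 when thinned, where 27 were tested. SC over satellite-like higher members went from 7 to 3 when thinned, where 14 were tested. Mesenchymal-like members lower in SPP1-nAb went from 5 to 8 at resolution 2 and under the gate, to 3 with no doublets removed and to 1 without the small cluster, and higher members from 0 to 1 when thinned. SC members lower in SPP1-nAb went from 1 to 2 with no doublets removed, where 15 were tested, and to 0 when thinned, where 1 was tested, and higher members from 0 to 1 under the gate. In satellite-like cells Pmvk was past the fold in 1 direction by the main setting and 0 members were higher with no doublets removed, with 20% removed, under the gate or when thinned. Precision is limited by the UMIs of small classes.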
